A study of Mus musculus with 9 samples.

Results

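The mGluR6 cascade is the signalling pathway by which ON bipolar cells of the retina read the light signal of photoreceptors. It was followed through 10 genes: Grm6, Trpm1, Gpr179, Nyx, Lrit3, Gnao1, Rgs7, Rgs11, Pcp2 and Prkca. The genes were chosen by name, as rows of the deposited table of P21 retina whose gene symbol is on this list. All 10 were found, each in 1 row, among the 55487 gene rows of the table, and all 10 passed the filter on low values that left 21330 genes for testing. Of these 10 genes, 3 were called lower in Tet tcKO retinas than in Cre- retinas, beside 1.57% of all tested genes. They were the channel gene Trpm1, the synaptic gene Nyx and the kinase gene Prkca. Only 1 of them, Nyx, was also called lower than in tHet retinas, beside 1.61% of all tested genes. These calls are from limma, and count tests on the reads recovered from the same values called Prkca but not Trpm1 or Nyx against Cre-. The receptor gene Grm6 itself was not called in either comparison.

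In darkness, glutamate released by photoreceptors binds the receptor mGluR6 on the dendritic tips of ON bipolar cells, and the receptor acts through the G protein Go to keep the cation channel TRPM1 closed. When light lowers the release of glutamate, RGS proteins speed the switching off of the G protein, TRPM1 opens and the cell depolarises. Loss of function of several of these genes is known as a cause of congenital stationary night blindness, in which the ON response of the electroretinogram is reduced or missing.

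Bulk RNA-seq was made from whole retinas of C57 BL/6J mice at P21 (postnatal day 21) in 3 genotypes with 3 libraries each, and each library pooled the retinas of 2 animals. Cre- animals, labelled WT, carried no Cre transgene and came from Cre- breeders. tHet animals carried a Cre-GFP transgene and 1 floxed allele of each of Tet1, Tet2 and Tet3, and Tet tcKO animals carried the transgene with both alleles of all 3 genes floxed. The TET enzymes oxidise 5-methylcytosine, a step of active DNA demethylation. The transgene is active in retinal progenitors, its expression can be mosaic, and Cre+ animals were in-crossed for both other genotypes, so that the transgene and the breeding line cannot be told apart from genotype in comparisons with Cre-. Libraries of 1 genotype were treated as replicates, so p-values measure the spread between pools of animals.

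Reads counted on genes ranged from 9627927 to 21108256 per library, and 1 read was worth between 0.0474 and 0.1039 CPM (reads of a gene scaled to the total on all genes). Each member had at least 18 reads in every library. Retinal identity was plain in the control libraries, where 10 rod genes summed to between 30170 and 40680 CPM, and in Tet tcKO libraries they summed to 4040, 12090 and 6254 CPM. Of the floxed genes, Tet3 was at 213, 268 and 223 CPM in Cre- libraries and 108, 152 and 99.2 CPM in Tet tcKO libraries (limma adjusted p = 0.0174), and Tet1 and Tet2 overlapped between all genotypes. The counts include exons outside the floxed ones, so these levels do not measure the deletion. A ribosomal RNA gene, CT010467.1, took 28.7% of the reads in Tet tcKO replicate 3, 3.72% in tHet replicate 3 and at most 0.226% in any other library, which lowers the CPM of all other genes in those libraries.

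The members lie on chromosomes 1, 3, 7, 8, 11, 17 and X (GENCODE M21 on GRCm38). Grm6 spans chr11:50850685-50866208, Trpm1 spans chr7:64153835-64269775, Nyx spans chrX:13466110-13489313, Gpr179 spans chr11:97332109-97352077 and Prkca spans chr11:107933387-108343928. The bases just upstream of the RefSeq start of these 5 genes (GRCm38.p6) are shown because the enzymes deleted here act on methylated cytosines, which in mammals are mostly in CG dinucleotides. They are written 5′ to 3′ on the strand of the gene, with each CG in capitals.
Trpm1, chr7:64153585-64153834: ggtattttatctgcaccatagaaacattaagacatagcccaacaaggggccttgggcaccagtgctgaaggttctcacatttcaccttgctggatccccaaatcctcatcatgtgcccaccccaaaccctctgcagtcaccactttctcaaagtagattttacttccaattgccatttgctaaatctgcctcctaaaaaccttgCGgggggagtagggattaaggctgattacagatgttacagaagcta
Nyx, chrX:13460840-13461089: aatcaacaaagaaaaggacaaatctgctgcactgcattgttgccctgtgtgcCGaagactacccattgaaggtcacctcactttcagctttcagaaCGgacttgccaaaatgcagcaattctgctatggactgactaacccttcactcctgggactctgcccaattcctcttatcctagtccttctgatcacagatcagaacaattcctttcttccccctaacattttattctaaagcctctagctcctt
Prkca, chr11:108343929-108344138: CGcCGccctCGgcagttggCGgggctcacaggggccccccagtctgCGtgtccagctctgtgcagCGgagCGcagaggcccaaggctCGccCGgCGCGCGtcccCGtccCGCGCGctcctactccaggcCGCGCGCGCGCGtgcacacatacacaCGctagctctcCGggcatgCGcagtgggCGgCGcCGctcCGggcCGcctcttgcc
Grm6, chr11:50850435-50850684: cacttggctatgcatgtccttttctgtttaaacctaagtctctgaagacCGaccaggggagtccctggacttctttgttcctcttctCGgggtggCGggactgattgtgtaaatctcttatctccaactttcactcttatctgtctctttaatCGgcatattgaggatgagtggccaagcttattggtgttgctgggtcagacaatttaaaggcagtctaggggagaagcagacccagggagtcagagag
Gpr179, chr11:97352357-97352606: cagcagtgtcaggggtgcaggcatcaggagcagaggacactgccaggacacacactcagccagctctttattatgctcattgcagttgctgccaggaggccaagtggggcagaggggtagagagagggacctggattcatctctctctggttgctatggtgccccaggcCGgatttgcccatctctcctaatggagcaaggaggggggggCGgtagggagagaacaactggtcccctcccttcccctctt
The windows of Trpm1 (the first of its 2 listed starts), Nyx and Grm6 are on the plus strand and those of Gpr179 and Prkca on the minus strand. The RefSeq starts of Nyx and Gpr179 lie upstream of their GENCODE starts. The Prkca window was ended before annotated exon bases.

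The count of CG dinucleotides did not separate the members that were called lower from the others. In windows of 300 bases, 250 before and 50 after the start, Trpm1 held 2 at its first start and 6 at its second, Nyx held 3 and Prkca held 42. Grm6 held 4 and Gpr179 held 2. The median over all 32851 windows of RefSeq was 7, and 94.6% of them held at least 1. Of the members without a call, Gnao1 held 42, Rgs7 held 34, Lrit3 held 9 and the 4 windows of Pcp2 held 1 to 3. The letters GGATTA (or TAATCC on the other strand), the core recognised by OTX2 and CRX, were present once, at the first start of Trpm1, and 7.06% of all windows hold them. CATATG, an E-box, was in no member window and is in 3.91% of all windows. Rgs11 is named only, and DNA methylation was not analysed here.

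**Figure D1:**
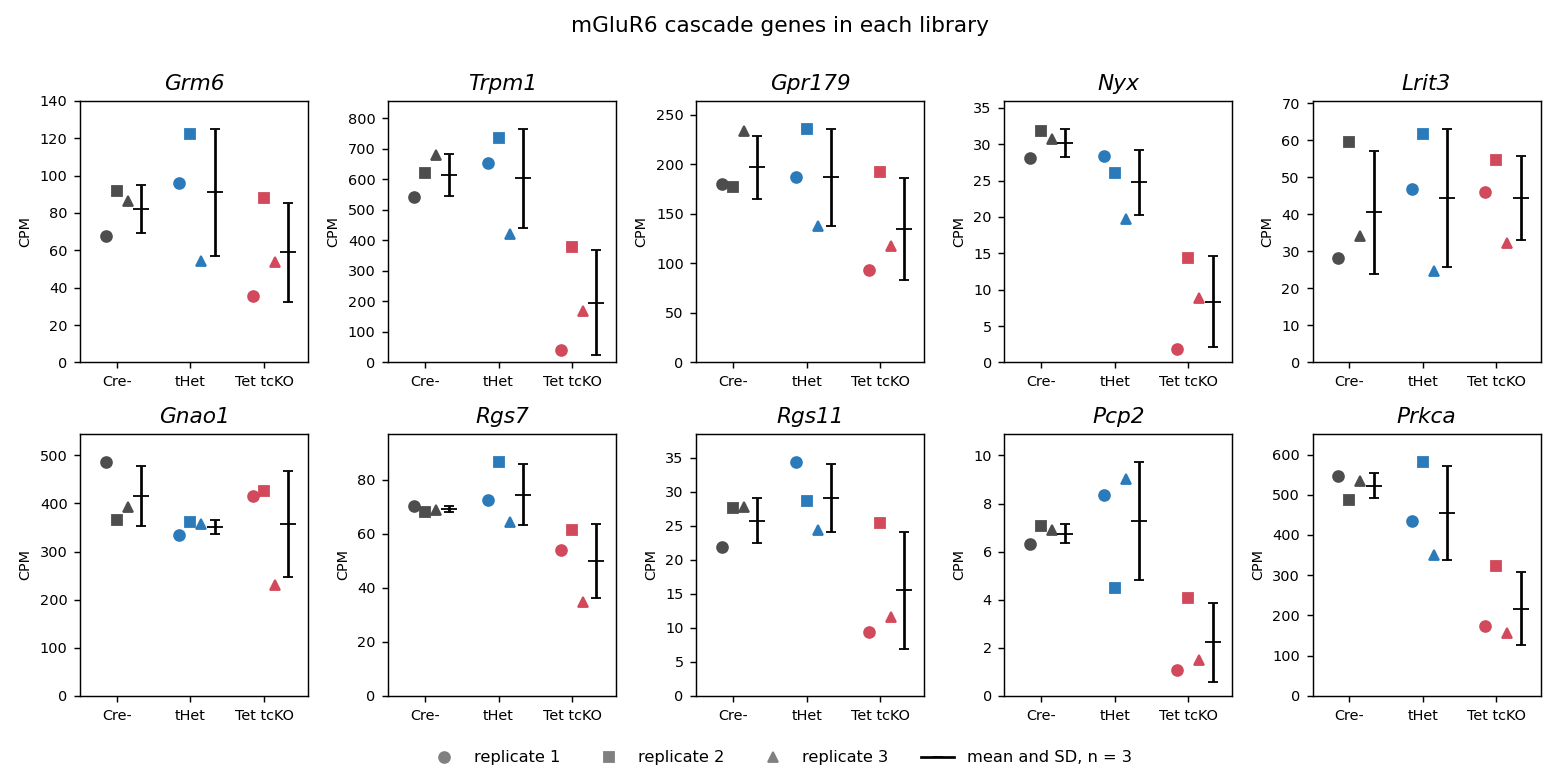
CPM of the 10 members in each library, with genotypes on the x axis, a marker for each replicate number and the mean with SD (n = 3) beside them. Trpm1, Nyx, Rgs7, Pcp2 and Prkca were lower in every Tet tcKO library than in all 6 control libraries, and Tet tcKO replicate 2 is the highest Tet tcKO library in all 10 panels.

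Grm6 encodes the receptor mGluR6 itself. In Cre- libraries Grm6 was at 67.9, 92.0 and 86.7 CPM, in tHet libraries at 96.3, 122 and 54.5 CPM, and in Tet tcKO libraries at 35.3, 87.8 and 53.7 CPM. Tet tcKO replicate 2 lay among the controls and tHet replicate 3 lay among the Tet tcKO libraries, so the genotypes overlapped. The log2 fold change (log2FC, on log2(CPM + 0.5)) of Grm6 was −0.56 for Tet tcKO against Cre- (SE 0.302, limma adjusted p = 0.397) and −0.64 against tHet (SE 0.302, limma adjusted p = 0.274), where SE is the standard error. Scaling each library to the mean log2 level of 9 bipolar identity genes turned the first of these to 0.15. That scaling adds 0.715 to nearly every log2FC against Cre-, which is the size of the list's mean log2FC of −0.715, and it moves the median of all tested genes to 0.62, so that Grm6 stays below that median. The 3 genes of the list called lower, Bhlhe23, Sebox and Car8, set this shift, since the mean of the other 6 was 0.03. In bulk tissue, fewer cells of a type and less RNA per cell cannot be told apart.

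Trpm1, the cation channel at the end of the cascade, showed the widest spread among Tet tcKO libraries. It was at 542, 620 and 679 CPM in Cre- libraries, at 652, 735 and 421 CPM in tHet libraries, and at 39.1, 378 and 169 CPM in Tet tcKO libraries. Each Tet tcKO library was below all 6 control libraries, and replicate 1 was far below the other two. The log2FC was −2.16 against Cre- (SE 0.487, limma adjusted p = 0.00746). This passed the call, for which the absolute log2FC had to reach 1 with an adjusted p below 0.01. Against tHet the log2FC was −2.11 (SE 0.487, limma adjusted p = 0.0106), just short of the call.

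Nyx encodes nyctalopin, a leucine-rich repeat protein of the dendritic tips that is needed to place TRPM1 there. Its level was 28.1, 31.8 and 30.8 CPM in Cre- libraries, 28.4, 26.1 and 19.8 CPM in tHet libraries, and 1.84, 14.4 and 8.79 CPM in Tet tcKO libraries. Every Tet tcKO library lay below all controls, with replicate 1 again the lowest, at 31 reads. Nyx was called lower in both comparisons, with a log2FC of −2.16 versus Cre- (SE 0.426, limma adjusted p = 0.00258) and −1.86 versus tHet (SE 0.426, limma adjusted p = 0.00965).

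Gpr179 and Lrit3 were not called in either comparison. Gpr179, an orphan receptor that holds the RGS proteins at the tip, was at 180, 178 and 234 CPM in Cre- libraries, 187, 236 and 138 CPM in tHet libraries and 93.5, 192 and 118 CPM in Tet tcKO libraries. Lrit3, a leucine-rich repeat protein needed for TRPM1 at the synapse, was at 28.1, 59.4 and 34.2 CPM in Cre- libraries, 47.0, 61.8 and 24.7 CPM in tHet libraries and 46.0, 54.8 and 32.3 CPM in Tet tcKO libraries. The genotypes overlapped for both genes, and the spread of Lrit3 was as wide within each control as across genotypes. For Gpr179 the log2FC versus Cre- was −0.60 (SE 0.263, limma adjusted p = 0.236), which became 0.11, still below the median of all genes, when scaled to the bipolar identity genes. For Lrit3 it was 0.17 (SE 0.314, limma adjusted p = 0.916). Versus tHet, Gpr179 was at −0.50 (limma adjusted p = 0.339) and Lrit3 at 0.06 (limma adjusted p = 0.955).

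Gnao1 encodes the alpha subunit of Go, which neurons of many types express. It was at 486, 366 and 393 CPM in Cre- libraries, 335, 361 and 358 CPM in tHet libraries and 415, 427 and 230 CPM in Tet tcKO libraries. Only replicate 3 of Tet tcKO, the library with the large share of ribosomal RNA, lay below the controls. Its log2FC was −0.26 versus Cre- (SE 0.25, limma adjusted p = 0.769) and −0.03 versus tHet (SE 0.25, limma adjusted p = 0.972). Without that library the first value was 0.03 and the second 0.26, and scaled to the bipolar identity genes they were 0.46 and 0.29, where the medians of all genes were 0.62 and 0.23.

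Rgs7 and Rgs11 encode the GTPase-activating proteins that switch off Go in these cells. Rgs7 was at 70.5, 68.1 and 69.0 CPM in Cre- libraries, 72.7, 86.6 and 64.4 CPM in tHet libraries and 54.0, 61.4 and 34.7 CPM in Tet tcKO libraries, with every Tet tcKO library below all controls. The log2FC of Rgs7 was −0.50 versus Cre- (SE 0.227, limma adjusted p = 0.264) and −0.60 versus tHet (SE 0.227, limma adjusted p = 0.147), so neither was called, and the first became 0.21, below the median of 0.62 of all genes, when scaled to the bipolar identity genes. Rgs11 was at 21.9, 27.6 and 27.7 CPM in Cre- libraries, 34.4, 28.6 and 24.4 CPM in tHet libraries and 9.44, 25.4 and 11.6 CPM in Tet tcKO libraries, so that replicates 1 and 3 lay below the controls and replicate 2 among them. The log2FC of Rgs11 was −0.84 versus Cre- (SE 0.294, limma adjusted p = 0.109) and −1.004 versus tHet (SE 0.294, limma adjusted p = 0.0469). Without Tet tcKO replicate 2 Rgs11 was called lower in both comparisons, at −1.25 (limma adjusted p = 0.00503) and −1.42 (limma adjusted p = 0.0017). Over the 21 alternatives its adjusted p ran from 0.00503 to 0.71 versus Cre- and from 0.0017 to 0.48 versus tHet.

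Pcp2 and Prkca are both known from rod bipolar cells, the former as a modulator that binds the alpha subunit of Go and the latter as protein kinase C alpha, a common marker of these cells. Prkca was at 546, 487 and 534 CPM in Cre- libraries, 434, 581 and 349 CPM in tHet libraries and 173, 322 and 157 CPM in Tet tcKO libraries. Each Tet tcKO library was below all controls, though replicate 2 came close to tHet replicate 3. Prkca was called lower versus Cre- (log2FC −1.34, SE 0.271, limma adjusted p = 0.0031) and not versus tHet (log2FC −1.11, SE 0.271, limma adjusted p = 0.0154). Scaled to the bipolar identity genes, Prkca lost the call versus Cre- (log2FC −0.63, limma adjusted p = 0.0749), while Trpm1 and Nyx kept theirs. Pcp2 was the least abundant member, at 6.30, 7.06 and 6.89 CPM in Cre- libraries, 8.35, 4.47 and 9.001 CPM in tHet libraries and 1.07, 4.09 and 1.51 CPM in Tet tcKO libraries, where replicate 1 had 18 reads. All Tet tcKO libraries were below all controls, and the log2FC of −1.57 versus Cre- (SE 0.376, limma adjusted p = 0.0118) and −1.62 versus tHet (SE 0.376, limma adjusted p = 0.0108) did not reach the call. On the recovered reads, DESeq2 called Pcp2 lower versus Cre- (log2FC −1.66, DESeq2 adjusted p = 0.0018) and versus tHet (log2FC −1.76, DESeq2 adjusted p = 0.000923). The other count test, edgeR, called it in neither comparison. Exons of Pet100 on the opposite strand cover 51.5% of the exonic bases of Pcp2, and how the counting used strand is not given in the sources used here, so reads of these genes may not be separable.

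**Figure D2:**
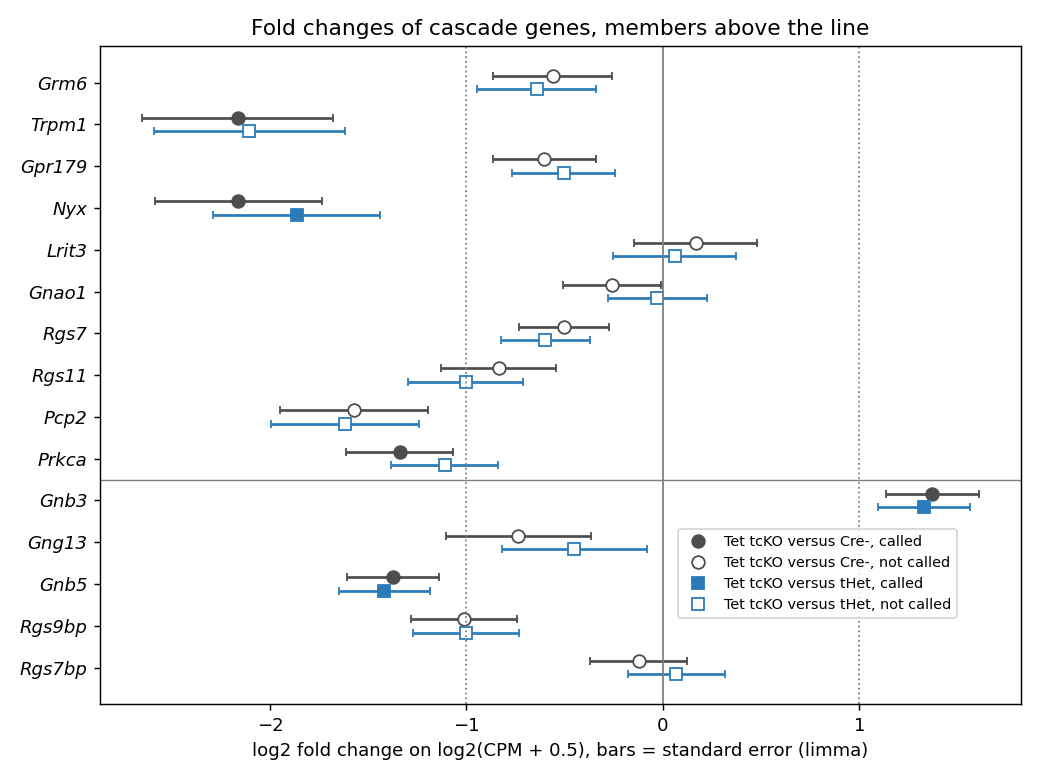
Log2FC with its standard error (limma, x axis) for the 10 members and, below the line, 5 other genes of the cascade (y axis), in Tet tcKO versus Cre- (circles) and versus tHet (squares), where filled symbols are called and dotted lines mark an absolute log2FC of 1. Nyx, Gnb3 and Gnb5 are filled in both comparisons, and Grm6, Gpr179, Rgs7 and Gnao1, left of 0 here, move to its right versus Cre- when libraries are scaled to the bipolar identity genes, which moves the median of all tested genes to 0.62, above all 4.

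Across the members, 3 of 10 were called lower versus Cre-, beside 1.57% of all tested genes, and 0 of 10 were called higher, beside 2.03%. With an unadjusted p under 0.05, 7 were lower and 0 higher in each of limma, edgeR and DESeq2. Of all tested genes, limma had 7.47% lower and 8.59% higher by this measure, edgeR 9.99% and 10.9%, and DESeq2 10.2% and 10.6%. Calls of lower members numbered 1 in edgeR and 2 in DESeq2, beside 318 and 509 of the 21330 tested genes. Members called higher numbered 0 in both, beside 426 and 636 tested genes. Every Tet tcKO library lay below every Cre- library for 5 members, beside 9.6% of tested genes, and above for 0, beside 10%. The median log2FC was −0.72 over the members and 0.00 over all tested genes. Against tHet, 1 of 10 was called lower, beside 1.61% of tested genes, and 0 higher, beside 1.39%. The same 5 members, Trpm1, Nyx, Rgs7, Pcp2 and Prkca, lay below every tHet library in all Tet tcKO libraries, beside 9.68% of tested genes, and 0 lay above, beside 7.35%. Below all 6 controls at once were 4.82% of tested genes. The median versus tHet was −0.82 over the members and −0.06 over all tested genes. The Tet tcKO libraries are shared by both comparisons. Scaled to the bipolar identity genes, where the median of all tested genes moved to 0.62 versus Cre- and 0.23 versus tHet, 5 members were higher and 5 lower versus Cre-, with a median of −0.02, and 2 were higher and 8 lower versus tHet, with a median of −0.51.

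The calls rested on few libraries, as did those over all tested genes. Of all tested genes, 334 were called lower versus Cre- with all 9 libraries. This was 144, 456 and 96 without Tet tcKO replicates 1, 2 and 3, and 172 without Cre- replicate 3. Versus tHet, 343 were called lower with all 9 libraries. This was 130, 508 and 82 without Tet tcKO replicates 1, 2 and 3, and 169 without tHet replicate 1. Leaving out Tet tcKO replicate 3, 0 members were called versus Cre-, with Trpm1 at −2.32 (limma adjusted p = 0.0782), Nyx at −2.38 (limma adjusted p = 0.0332) and Prkca at −1.15 (limma adjusted p = 0.0334). Without replicate 1 only Nyx was called (−1.38, limma adjusted p = 0.0065), while Trpm1 was at −1.27 and Prkca at −1.21. Without replicate 2 there were 5 calls, with Trpm1 at −2.90, Nyx at −2.72, Pcp2 at −2.03 and Prkca at −1.66, beside Rgs11. Without Cre- replicate 3 only Nyx was called, and Trpm1 had a limma adjusted p of 0.0258. In Tet tcKO versus tHet, 0 members were called without Tet tcKO replicate 1, without Tet tcKO replicate 3 or without tHet replicate 1, and 5 without Tet tcKO replicate 2. There 3 were called without tHet replicate 3 or Cre- replicate 2 and 4 without Cre- replicate 1. Without tHet replicate 2 the single call versus tHet was Pcp2, and without Cre- replicate 3 it was Trpm1. Over the 21 alternatives, versus Cre-, Trpm1 was called in 12 with an adjusted p between 1.58e-05 and 0.487, Nyx in 15 with an adjusted p between 5.26e-06 and 0.32, Prkca in 16 with an adjusted p between 2.56e-07 and 0.175 and Pcp2 in 8 with an adjusted p between 0.000825 and 0.276. All 4 kept their direction in each of these 21 alternatives. Versus tHet, Nyx was called in 10 of 21 with an adjusted p between 4.43e-07 and 0.446, and its call was lost without any 1 of 5 libraries, Cre- replicate 3, tHet replicates 1 and 2, and Tet tcKO replicates 1 and 3. Trpm1 and Nyx were not called versus Cre- on the recovered reads, although their folds stayed past the threshold. There edgeR gave a log2FC of −1.67 for Trpm1 (adjusted p = 0.071) and −1.85 for Nyx (adjusted p = 0.0266), and DESeq2 gave −1.68 (adjusted p = 0.0877) and −1.85 (adjusted p = 0.0284). Prkca was called by both tools.

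Between the control genotypes no member was called. In tHet versus Cre- 0 of 10 members were called higher, beside 0.0422% of tested genes, and 0 lower, beside 0%, and limma, edgeR and DESeq2 gave 0 members with an unadjusted p under 0.05, beside 4.55%, 6.36% and 6.37% of tested genes. The members' log2FC ran from −0.30 for Nyx to 0.17 for Rgs11, 5 above 0 and 5 below, with a median of −0.01 beside 0.06 over all tested genes. Every tHet library was below every Cre- library for 1 member, Gnao1, beside 5.37% of tested genes, and above for 0, beside 5.78%. Scaled to the bipolar identity genes, all 10 members were above 0, with a median of 0.37 beside 0.39 over all tested genes.

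Levels of different members can be compared only per length. Per kb of exon in Cre- libraries, Prkca was highest at 58.1 ± 3.48 CPM per kb (SD, n = 3), followed by Trpm1 at 41.6 ± 4.68, Gnao1 at 37.5 ± 5.69, Gpr179 at 20.7 ± 3.33, Grm6 at 15.2 ± 2.34, Lrit3 at 14.8 ± 6.06, Rgs7 at 11.5 ± 0.201, Rgs11 at 6.12 ± 0.789, Nyx at 5.83 ± 0.372 and Pcp2 at 3.69 ± 0.219. Of neighbours in this order, Trpm1 and Gnao1, Grm6 and Lrit3, Lrit3 and Rgs7, and Rgs11 and Nyx overlapped between libraries. In Tet tcKO libraries Gnao1 had the highest mean, 32.3 ± 9.96, then Prkca at 24.2 ± 10.1, and Trpm1, at 13.3 ± 11.6, stood between Gpr179 at 14.1 ± 5.38 and Grm6 at 10.9 ± 4.91. These Tet tcKO ranges overlapped from each neighbour to the next.

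**Figure D3:**
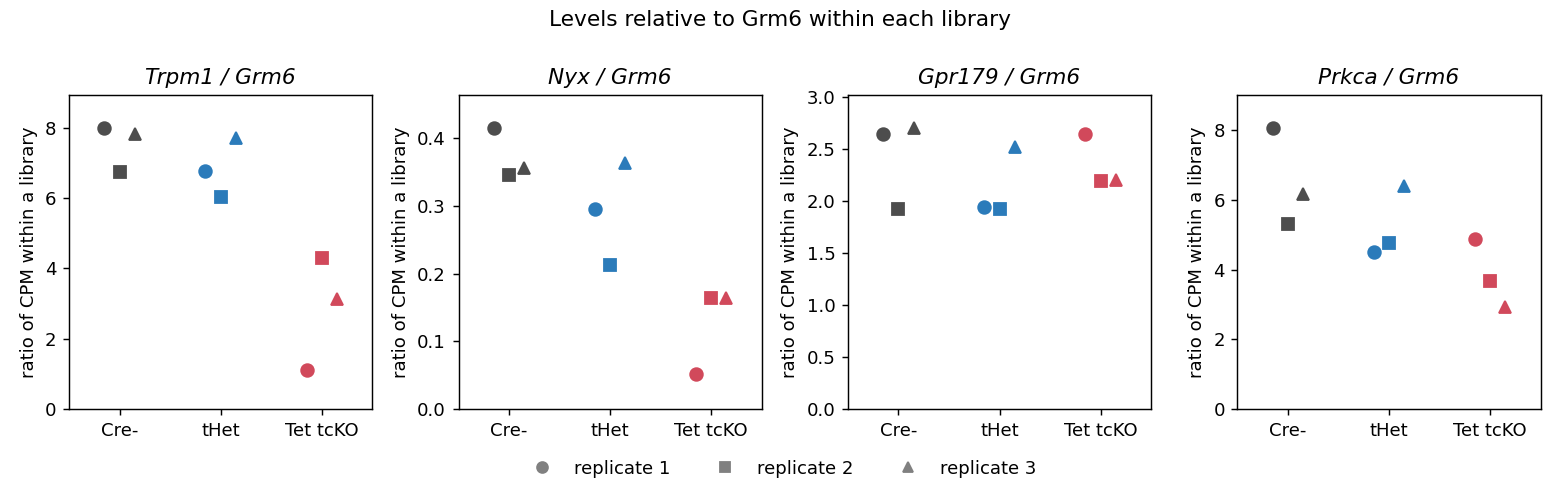
Ratio of the CPM of Trpm1, Nyx, Gpr179 and Prkca to that of Grm6 within each library (y axis), by genotype (x axis), with a marker for each replicate number. Trpm1 and Nyx lie lower in all 3 Tet tcKO libraries than in all 6 controls, while Gpr179 overlaps.

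A ratio within a library does not depend on how libraries are scaled, and these ratios to Grm6 were chosen after the values were seen. For each CPM of Grm6, Trpm1 was at 7.98, 6.74 and 7.83 CPM in Cre- libraries, 6.77, 6.02 and 7.72 in tHet libraries and 1.11, 4.31 and 3.14 in Tet tcKO libraries. The ratio of Nyx to Grm6 lay between 0.213 and 0.414 in the 6 controls and between 0.0521 and 0.164 in Tet tcKO libraries. For both genes the Tet tcKO and control libraries did not overlap. Of all other tested genes, 1.73% had a ratio to Grm6 below all controls in every Tet tcKO library and 11.4% had one above, and no test was made of these ratios. The ratio of Gpr179 to Grm6 was between 2.19 and 2.65 in Tet tcKO libraries, within the 1.93 to 2.7 of the controls. Lrit3, Gnao1, Rgs7, Rgs11, Pcp2 and Prkca also overlapped on this scale, among them Prkca at 2.92 to 4.88 in Tet tcKO libraries and 4.51 to 8.05 in controls.

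The 3 Tet tcKO libraries differed widely in these genes. Replicate 2 was the highest of them for all 10 members, as it was for 55.6% of tested genes, and replicate 1 was the lowest for 6 of 10, beside 24.5% of tested genes. Relative to the mean of the 6 controls, Trpm1 stood at 6.43%, 62.2% and 27.8% in Tet tcKO replicates 1, 2 and 3, and Nyx at 6.70%, 52.3% and 32.0%. Rod RNA followed the same order: the summed level of 10 rod genes, all detected, was 11.2%, 33.6% and 17.4% of the control mean, with 4040 to 12090 CPM in Tet tcKO libraries, 34370 to 40680 in Cre- libraries and 30170 to 37060 in tHet libraries. Of these rod genes 8 of 10 were called lower in each Tet tcKO comparison and 0 higher. Of all tested genes, 1.57% were called lower versus Cre- and 1.61% versus tHet. The part of the lower rod RNA in the members' levels was not tested. The summed level of 9 cone genes went the other way, from 590.7 to 785 CPM in the 6 controls to 1745 to 2691 CPM in Tet tcKO libraries. The cone genes did not all rise, since 6 of 9 were called higher and 1 lower in each Tet tcKO comparison. Of all tested genes, 2.03% were called higher versus Cre- and 1.39% versus tHet.

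**Figure D4:**
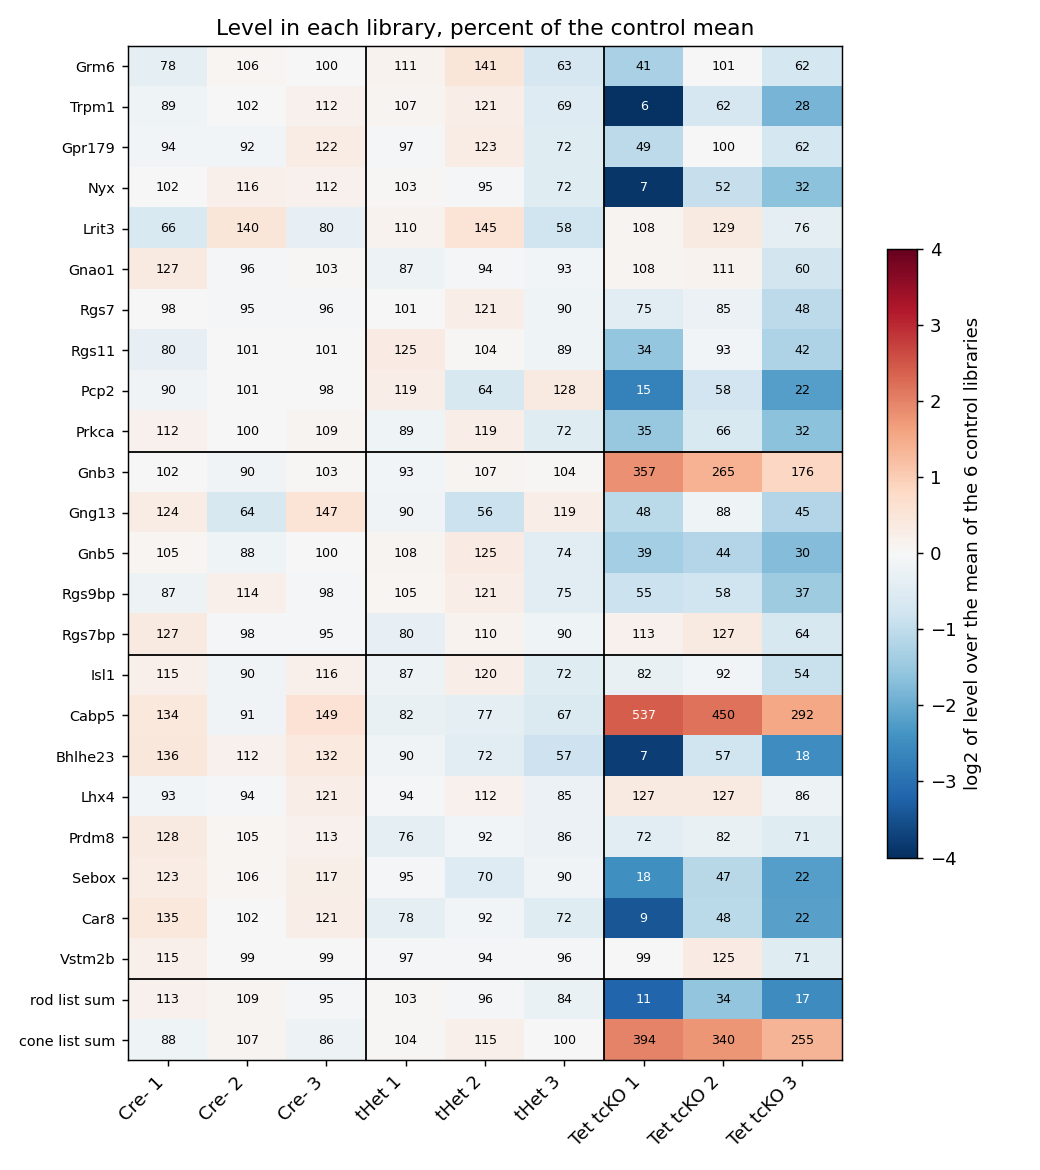
Level of the 10 members, 5 other cascade genes, 8 bipolar identity genes and the rod and cone lists (rows) in each library (columns), printed as percent of the mean of the 6 control libraries and coloured by its log2. Tet tcKO replicate 1 is the darkest blue for Trpm1 (6.43%) and Nyx (6.70%), and Cabp5 and Gnb3 are red in all Tet tcKO libraries.

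Other genes of the cascade moved in both directions. Gnb3, the G protein beta subunit that ON bipolar cells share with cones, was at 116, 103 and 118 CPM in Cre- libraries, 106, 122 and 118 CPM in tHet libraries and 406, 302 and 200 CPM in Tet tcKO libraries. All Tet tcKO libraries were above all controls, and Gnb3 was called higher versus Cre- (log2FC 1.37, SE 0.236, limma adjusted p = 0.000769) and versus tHet (1.33, limma adjusted p = 0.00115). The latter call was lost without tHet replicate 1 (1.27, limma adjusted p = 0.0112) and without Tet tcKO replicate 1 (1.09, limma adjusted p = 0.0151), in a range of adjusted p over the alternatives from 4.71e-09 to 0.115. Gnb5, the beta subunit bound to Rgs7 and Rgs11 and, in photoreceptors, to Rgs9, was at 265, 223 and 252 CPM in Cre- libraries, 273, 316 and 189 CPM in tHet libraries and 99.1, 112 and 76.0 CPM in Tet tcKO libraries. It was called lower in both comparisons (log2FC −1.37 and −1.42, limma adjusted p = 0.000625 and 0.000533), and lost the call versus Cre- when scaled to the bipolar identity genes (log2FC −0.66, limma adjusted p = 0.0536). Rgs9bp, which anchors RGS proteins in both cell types, was at 862 to 1128 CPM in Cre- libraries and 368 to 571 CPM in Tet tcKO libraries. Its log2FC of −1.01 versus Cre- and −1.001 versus tHet had limma adjusted p of 0.0246 and 0.0286. Gng13 (log2FC −0.74 and −0.45) and Rgs7bp (−0.12 and 0.07) were not called and overlapped between genotypes. Exons of Chtf18 on the opposite strand cover 51.6% of the exonic bases of Gng13. In all, 1 of these 5 genes was called higher and 1 lower in each comparison, with a median log2FC of −0.74 versus Cre-. Of all tested genes, 2.03% were called higher and 1.57% lower versus Cre-, and 1.39% and 1.61% versus tHet.

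The 9 bipolar identity genes did not move together either. Versus Cre-, 1 was called higher and 3 lower, beside 2.03% and 1.57% of tested genes, with a median log2FC of −0.52. Cabp5, a calcium-binding protein of several bipolar types, was at 204, 139 and 227 CPM in Cre- libraries, 124, 117 and 103 CPM in tHet libraries and 819, 687 and 445 CPM in Tet tcKO libraries, and was called higher in both comparisons (log2FC 1.76 and 2.46, limma adjusted p = 0.000119 and 2.94e-06). Car8, Sebox and Bhlhe23, all known from rod bipolar cells, were called lower versus Cre- at a log2FC of −2.43, −1.99 and −2.20. Car8 was at 159.5, 120.5 and 143 CPM in Cre- libraries, 92.2, 109 and 84.8 CPM in tHet libraries and 10.99, 56.4 and 26.5 CPM in Tet tcKO libraries, with replicate 2 the highest, as for the members. Versus tHet, Car8 (−1.87, limma adjusted p = 0.00242) and Sebox (−1.56, limma adjusted p = 0.00243) were called lower and Bhlhe23 was not (−1.45, limma adjusted p = 0.0387). Versus Cre-, Bhlhe23 lost its call without Tet tcKO replicate 1 or 3 and Car8 without replicate 3 (limma adjusted p = 0.0157). Versus tHet, Car8 lost it without tHet replicate 2, and both Car8 and Sebox lost it without Tet tcKO replicate 1 or 3, Sebox also without tHet replicate 1. The transcription factors Isl1, Lhx4 and Prdm8 were not called, and neither was Vstm2b. The summed level of the list, to which Cabp5 contributes most in Tet tcKO libraries, was 711.6 to 926.9 CPM in Cre- libraries, 595 to 749.3 CPM in tHet libraries and 775.8 to 1238 CPM in Tet tcKO libraries. None of the 9 genes was at 0 in any library. In tHet versus Cre-, all 9 had a log2FC below 0, though 0 were called. For 6 of them every tHet library lay below every Cre- library, beside 5.37% of tested genes.

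The genes whose pattern over the 9 libraries was most like that of a member were found by Pearson correlation of log2(CPM + 0.5) among 17428 genes of at least 1 CPM on average. Among the 5 most like Trpm1 were Gm9195 (r = 0.993), Nyx (0.989), Gm40841 (0.987) and Gm16055 (0.975). Rgs11 ranked 84 and Grm6 ranked 326. Most like Grm6 were Chtf18 (r = 0.975), Adamtsl2 (0.972), Gm25406 (0.968), Gm9930 (0.967) and Gm45597 (0.964), with Gpr179 at rank 65 (0.934) and Trpm1 at rank 425 (0.873). These values describe 9 libraries that differ in genotype, depth and the share of ribosomal RNA, and the part of these differences in the correlations was not tested.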

How the data were processed

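The authors trimmed reads with Trim Galore 0.6.7, aligned them to mm10 with STAR 2.7.0f and counted them per gene with HTSeq 0.11.2, per the study's methods and the submitters' processing notes. Libraries were rRNA-depleted stranded total RNA, sequenced as 1 pool. The annotation release and the strand setting of the counting are not given in the sources used here. The authors deposited CPM for 9 libraries, beside group averages and their own edgeR comparisons (fold changes, mean log CPM, p-values, FDR, direction), which were not used. The smallest CPM above 0 in each library was taken as 1 read, and the library total was derived from it. Multiplying by that total gave whole reads (within 0.01) for 100% of values above 0.

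The test was limma (version 3.58.1, R 4.3.3) on log2(CPM + 0.5), with genotype as the term and all 9 libraries in the fit. It covered the 21330 genes that reached 0.5 CPM in 3 or more libraries. P-values were Benjamini-Hochberg adjusted over these genes, and for a call the absolute log2FC had to reach 1 with an adjusted p below 0.01. An exact two-sided permutation test of 3 against 3 libraries cannot go below 0.1. Recovered reads were also tested with edgeR 4.0.16 and DESeq2 1.42.0. The limma script was tested on simulated data. Depth was 9627927 to 21108256 reads, and counting error is smallest for the abundant members.

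Named genes were the 10 members, genes of lists for the cascade and retinal cell types, and the 5 genes most like Grm6 and Trpm1. Single values of some listed genes are not reported here. Members and lists were chosen with earlier results of these data known. Alternatives changed the pseudocount, filter, scaling, tool, samples, threshold and a replicate block. Scaling to the bipolar identity list used its mean log2(CPM + 0.5) in each library. Figures were drawn with matplotlib 3.10.9. Promoter sequences came from RefSeq (GRCm38.p6), with windows for 9 of 10 members, and exon lengths, in bases of merged exons, came from GENCODE M21.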

Additional observations from a re-analysis of the deposited data

How the results depend on the processing

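The number of members called lower in Tet tcKO versus Cre-, 3 as reported, was 0 with no filter on low values and 1 with TMM scaling, with CT010467.1 left out of the totals or with edgeR, the 1 being Prkca each time. Versus tHet, 1 as reported (Nyx), it was 0 with a pseudocount of 0.1, no filter, CT010467.1 left out or edgeR. With TMM scaling the single call was Prkca, and Nyx was lost (limma adjusted p = 0.0437). It was 2 with a pseudocount of 1 (Trpm1 and Nyx) and 2 with DESeq2 (Pcp2 and Prkca, with Nyx lost at an adjusted p of 0.107), 3 without the rod and cone lists in the totals or scaled to the bipolar identity list (Trpm1, Nyx and Pcp2 in both), 4 in a fit of only the 6 libraries compared, and 5 at an adjusted p under 0.05 with no fold threshold. Leaving out 1 library gave 0 to 5 in both comparisons. Over all genes, the calls versus Cre- were 434 higher and 334 lower as reported, 55 and 3 with no filter, 607 and 221 without CT010467.1, which moved the median of all genes to 0.143, 636 and 509 with DESeq2, and 2791 and 177 when scaled to the bipolar identity list. The cause of these shifts was not tested.

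Signs turned where scaling or the tool was changed and where 1 library was left out. Scaled to the bipolar identity list, which moved the median of all genes to 0.62 versus Cre-, 0.23 versus tHet and 0.39 in tHet versus Cre-, log2FC versus Cre- became 0.15 for Grm6, 0.11 for Gpr179, 0.46 for Gnao1, 0.21 for Rgs7, 0.59 for Rgs7bp, 0.20 for Isl1, 0.10 for Prdm8 and 0.58 for Vstm2b. Versus tHet it became 0.29 for Gnao1, 0.027 for Isl1, 0.15 for Prdm8 and 0.31 for Vstm2b. In tHet versus Cre- it became 0.34 for Trpm1, 0.29 for Gpr179, 0.0905 for Nyx, 0.16 for Gnao1 and 0.17 for Prkca. Without CT010467.1 Rgs7bp and Vstm2b were at 0.0394 and 0.0405 versus Cre-, and Gnao1 and Vstm2b at 0.12 and 0.14 versus tHet. Versus tHet, TMM gave 0.041 for Gnao1 and 0.0644 for Vstm2b, edgeR 0.0433 and 0.0612, and DESeq2 0.039 and 0.0562, and in tHet versus Cre- TMM gave −0.0053 for Pcp2. Without 1 library, values versus Cre- ran from −0.0566 to 0.48 for Lrit3, −0.41 to 0.0304 for Gnao1, −0.31 to 0.18 for Rgs7bp and −0.31 to 0.0924 for Vstm2b. Versus tHet they ran from −0.31 to 0.34 for Lrit3, −0.18 to 0.26 for Gnao1, −0.12 to 0.37 for Rgs7bp and −0.19 to 0.21 for Vstm2b. In tHet versus Cre- they ran from −0.17 to 0.41 for Grm6, −0.22 to 0.18 for Trpm1, −0.29 to 0.10 for Gpr179, −0.18 to 0.48 for Lrit3, −0.017 to 0.20 for Rgs7 and −0.13 to 0.34 for Pcp2.

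Replicate numbers are shared between genotypes, and the labels do not say whether they pair the libraries. Deviations of same-numbered libraries from their genotype means correlated at −0.35 to 0.56, and 5 of 9 pairs exceeded 0.1. For replicates 1, 2 and 3, Cre- with Tet tcKO gave 0.56, 0.352 and 0.148. Cre- with tHet gave −0.35, 0.356 and 0.0357, and tHet with Tet tcKO gave −0.3, 0.273 and −0.0801. With 3 libraries per genotype these values cannot decide whether the numbers mark pairs. With the replicate number as a block, 4 members were called lower versus Cre- and 5 versus tHet. Over all genes, 613 were then called higher and 514 lower versus Cre-, and 421 and 704 versus tHet.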

Other observations

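Photoreceptor genes that work across the synapse from the cascade moved in both directions. Cabp4, a calcium-binding protein of the photoreceptor terminal, was at 75.7, 100.5 and 82.6 CPM in Cre- libraries, 110.9, 83.8 and 89.1 CPM in tHet libraries and 20.2, 36.2 and 23.4 CPM in Tet tcKO libraries. It was called lower versus Cre- (log2FC −1.71, limma adjusted p = 6.95e-05) and versus tHet (−1.85, limma adjusted p = 4.47e-05). Cacna1f, the calcium channel subunit of that terminal, was called lower versus tHet (−1.35, limma adjusted p = 0.00302). Elfn2 was called higher in both comparisons (1.17 and 1.58, limma adjusted p = 0.00311 and 0.000221), at 38.9 to 45.5 CPM in Cre- libraries and 68.6 to 138.5 CPM in Tet tcKO libraries. Of this list of 9 genes, 1 was called higher and 1 lower versus Cre-, beside 2.03% and 1.57% of tested genes. Versus tHet, 1 was called higher and 2 lower, beside 1.39% and 1.61%.

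Of 4 OFF bipolar genes, 0 were called versus Cre- and 1, Tacr3, was called higher versus tHet (log2FC 1.08, limma adjusted p = 0.00507). Their summed level was 223.2 to 251.5 CPM in Cre- libraries, 162.8 to 215.3 CPM in tHet libraries and 167.5 to 241.9 CPM in Tet tcKO libraries. Versus Cre-, 2 of 5 Muller glia genes were called lower, Glul and Rlbp1, as were 1 of 7 amacrine genes, Slc6a9, and 1 of 3 tested pigment epithelium genes, Rpe65. The microglia gene Cx3cr1, 1 of 4, was called higher, and 0 of 7 ganglion cell and 0 of 4 horizontal cell genes were called. Versus tHet, 0 of 4 microglia genes were called, and Cx3cr1 overlapped (log2FC 0.64, limma adjusted p = 0.283). There 1 of 7 ganglion cell genes and 2 of 3 tested pigment epithelium genes were called lower. Calls of Muller glia, amacrine and horizontal cell genes were as many as versus Cre-. Of all tested genes, 2.03% were called higher and 1.57% lower versus Cre-, and 1.39% were called higher and 1.61% lower versus tHet. The part of these cell types in the members' levels was not tested.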
